A study of Mus musculus with 14 samples.

Results

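The ERK feedback genes studied here were the MAP kinase phosphatases Dusp4, Dusp5 and Dusp6, the Sprouty genes Spry1, Spry2 and Spry4, the Spred genes Spred1 and Spred2, and the ETS factors Etv4 and Etv5. They were a named set of 10 genes, found by symbol among the 30503 genes of the deposited count table, and all 10 were among the 17358 genes that passed the filter on low counts and were tested. Bulk RNA-seq had been made of 14 cultured clones of mouse femur marrow cells, each grown from a single tdTomato+ cell. The 5 Fgfr3-WT clones (Fgfr3-creER; R26R tdTomato/+) came from mice at P23 and were at passage 8. The 5 Fgfr3-p53 cKO (P28) clones and the 4 Fgfr3-p53 cKO (P4M) clones (Fgfr3-creER; Trp53 fl/fl; R26R tdTomato/+) came from mice at P28, at passage 8, and at 4 months, at passages 6 to 8. All 3 groups carried the Fgfr3-creER transgene and the tdTomato reporter, and by the methods all mice had received tamoxifen at P21, so in the cKO mice Trp53 was removed only in cells in which Fgfr3-creER was active. Each library is 1 clone, and the labels do not say which clones share a mouse, so the p-values measure the spread between these clones. The sample titles carry the number 1303 for all Fgfr3-WT libraries and 2963 for all cKO libraries. The labels do not say what it stands for. The genotype and whatever this number marks cannot be told apart in any comparison with Fgfr3-WT. By the paper, Fgfr3-WT clones took longer than cKO clones to reach passage 8, and a smaller share of them reached it. The time in culture, survival in culture and the age at isolation therefore cannot be told apart from the genotype either.

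Growth factor receptors act through Ras, Raf and Mek to activate the kinase ERK, and active ERK induces genes that damp the same pathway. Dusp6 removes phosphate from ERK in the cytoplasm, Dusp4 and Dusp5 do so in the nucleus, and the Sprouty and Spred proteins act upstream, between the receptors and Raf. Etv4 and Etv5 are transcription factors induced by fibroblast growth factor signalling, and in the skeleton that signalling, with Fgfr3 as a brake on chondrocyte growth, regulates both cartilage and bone. Transcripts of these genes are widely read as a trace of ERK activity, but ERK phosphorylation was not measured in these files.

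When the 9 cKO clones were set against the 5 Fgfr3-WT clones, 7 of the 10 genes rose and none fell. Etv4 and Spry1 rose most, Dusp4, Dusp5 and Spry4 rose less, and Spred1 and Spred2 rose least, while Dusp6, Spry2 and Etv5 were not called. The background was high, since 23.1% of all tested genes were called higher and 25.7% lower in this comparison (edgeR quasi-likelihood F-test over all 14 clones, Benjamini-Hochberg adjustment, FDR of 0.05). The median log2 fold change was 1.56 over the 10 genes and -0.05 over all genes tested. For 4 of them, Dusp5, Spry1, Spry4 and Etv4, every cKO clone lay above every Fgfr3-WT clone, which held for 9.73% of all genes tested.

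Against the same Fgfr3-WT clones, 6 of the 10 genes were called higher in the P28 clones, where 19.2% of all genes were called higher and 19.7% lower. In the P4M clones 8 were called higher, where 22.3% were called higher and 23.6% lower. None of the 10 was called lower in either comparison. The median log2 fold change of the 10 genes was 1.07 in the P28 clones, beside -0.02 over all genes, and 1.82 in the P4M clones, beside -0.06. Both comparisons share their Fgfr3-WT clones and are not independent of each other. Across the 3 groups, 8 of the 10 genes differed, beside 50.6% of all genes, and the exceptions were Spry2 (edgeR adjusted p = 0.899) and Etv5 (edgeR adjusted p = 0.161).

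**Figure D1:**
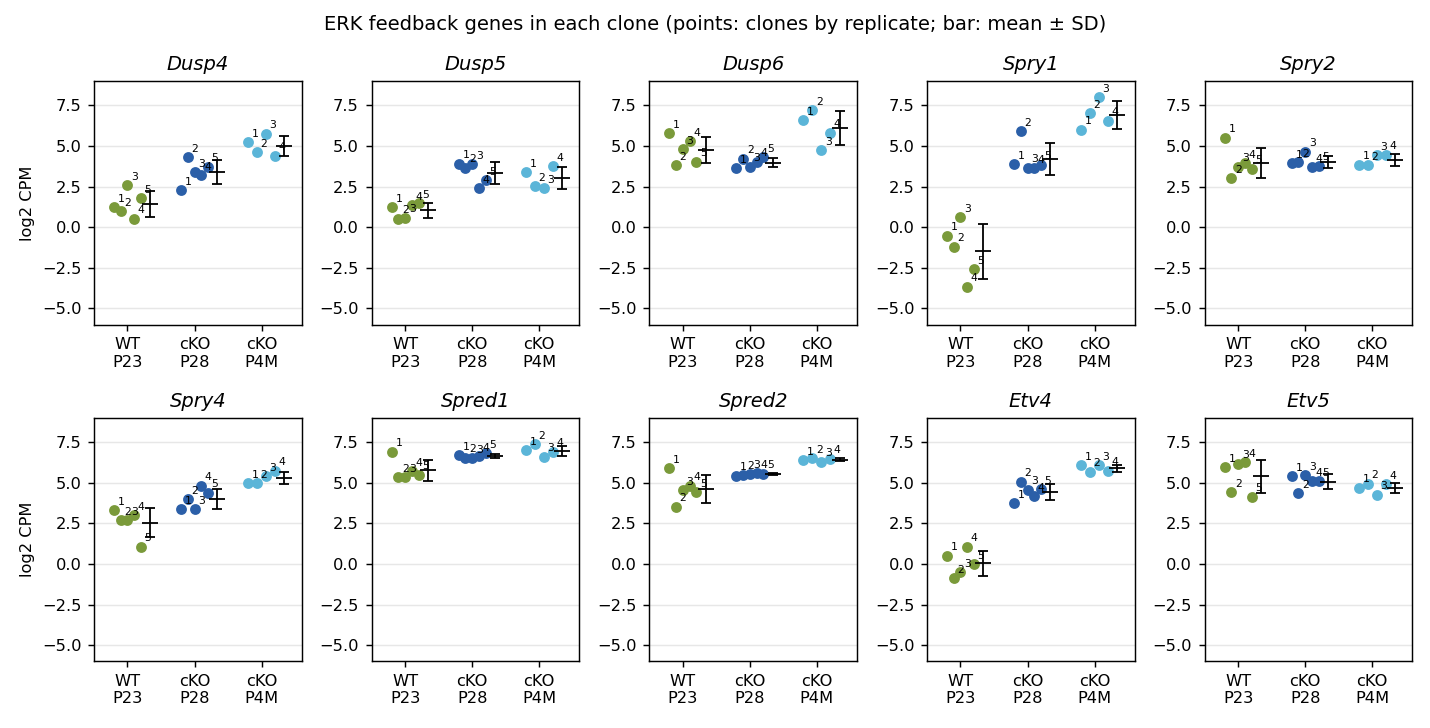
Expression of the 10 ERK feedback genes as log2 CPM (vertical axis) in each clone of the Fgfr3-WT (P23, green), Fgfr3-p53 cKO (dark blue for P28) and P4M (light blue) groups, with the replicate number beside each point and the mean ± SD of the group as a black bar. Spry1 and Etv4 show the widest separation between the Fgfr3-WT clones and the cKO clones, and the groups overlap for Spry2 and Etv5.

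Levels below are CPM, counts per 1000000 of the library total scaled by the TMM method, and each list of values follows the replicate numbers, which are running numbers within a group. Among the phosphatases, Dusp4 (ENSMUSG00000031530, chromosome 8 of mm10, 34807297 to 34819894) stood at 2.28, 1.95, 5.95, 1.39 and 3.36 CPM in the Fgfr3-WT clones. It stood at 4.82, 19.6, 10.4, 9.09 and 13.2 CPM in the P28 clones and at 37.8, 24.7, 54.5 and 21.0 CPM in the P4M clones. Replicate 1 of the P28 clones lay below the highest Fgfr3-WT clone, and the P4M clones lay above all the others. Dusp4 rose by 1.94 on the log2 scale in the P28 clones (SE 0.447, edgeR adjusted p = 0.0044). In the P4M clones the log2 fold change was 3.53 (SE 0.485, edgeR adjusted p = 0.000142), a fold of 11.6. From P28 to P4M it was 1.59 (SE 0.455, edgeR adjusted p = 0.0503) and was not called, although the groups did not overlap. The same difference was called with DESeq2 (adjusted p = 0.00762) and without P28 replicate 2 (log2 fold change 1.89, adjusted p = 0.0391). Leaving out a clone gave a call in 4 of 14 fits (edgeR adjusted p of at most 0.124).

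Dusp5 (ENSMUSG00000034765, chromosome 19, 53529109 to 53542431), the other nuclear phosphatase of the set, was at 2.28, 1.38, 1.46, 2.50 and 2.77 CPM in the Fgfr3-WT clones. It was at 15.1, 12.7, 14.7, 5.2 and 7.33 CPM in the P28 clones and at 10.5, 5.76, 5.25 and 13.5 CPM in the P4M clones. All cKO clones lay above all Fgfr3-WT clones, and the cKO groups overlapped. Dusp5 rose by 2.40 on the log2 scale in the P28 clones (SE 0.380, edgeR adjusted p = 0.000427) and by 2.07 in the P4M clones (SE 0.389, edgeR adjusted p = 0.000979). Dusp5 was not called between P4M and P28 (log2 fold change -0.33, SE 0.382, edgeR adjusted p = 0.629). Dusp5 overlaps an antisense gene, AC137853.2, over 547 bases. The protocol sources do not say that reads kept their strand, and Dusp5 had 4511 counts over all clones where AC137853.2 had 56. Since only non-ambiguous reads were counted, the totals do not show reads left out in the shared bases.

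Dusp6 (ENSMUSG00000019960, chromosome 10, 99263231 to 99267489), the cytoplasmic ERK phosphatase, was called higher in the P4M clones and was not called in the P28 clones. It was at 55, 14.2, 27.9, 39.3 and 16.4 CPM in the Fgfr3-WT clones, at 12.3, 18.6, 13.1, 16.4 and 19.8 CPM in the P28 clones and at 96.0, 148, 27.0 and 56.0 CPM in the P4M clones. The P28 clones lay within and just below the range of the Fgfr3-WT clones, and the P4M clones lay above every P28 clone. Against Fgfr3-WT, Dusp6 had a value of -0.93 on the log2 scale in the P28 clones (SE 0.437, edgeR adjusted p = 0.108) and 1.42 in the P4M clones (SE 0.459, edgeR adjusted p = 0.0224). From P28 to P4M, Dusp6 rose by 2.35 (SE 0.468, edgeR adjusted p = 0.0134), a fold of 5.09. This last call was kept when any 1 of the 14 clones was omitted (adjusted p of at most 0.0424). The call against Fgfr3-WT was lost without P4M replicate 2, the highest clone (log2 fold change 0.97, edgeR adjusted p = 0.101), and with only the compared groups in the fit (adjusted p = 0.0562). Taken over all cKO clones, the log2 difference in Dusp6 was 0.24 (SE 0.386, edgeR adjusted p = 0.625), an average over cKO groups that lay apart.

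Of the Sprouty genes, which hold back receptor signals to Ras and Raf, Spry1 (ENSMUSG00000037211, chromosome 3, 37639947 to 37644598) had the largest fold change of the 10 genes. Its level was low in the Fgfr3-WT clones, with 20, 10, 37, 1 and 3 counts, or 0.652, 0.383, 1.5, 0.0285 and 0.119 CPM, and replicates 4 and 5 were at or under the 3 counts that a count of 0 allows. The P28 clones were at 14.5, 60.6, 12.5, 12.4 and 14.3 CPM and the P4M clones at 64.4, 129, 257 and 94.3 CPM. No clone of one group overlapped another group. P28 replicate 2 stood apart from the other P28 clones, just below the lowest P4M clone. The log2 fold change was 5.44 in the P28 clones (SE 0.837, edgeR adjusted p = 0.000381) and 8.01 in the P4M clones (SE 0.932, edgeR adjusted p = 5.09e-05). Its size depended on the few Fgfr3-WT counts, and without Fgfr3-WT replicate 3 it was 6.27 and 8.84. For P4M against P28, Spry1 was called at 2.57 (SE 0.722, edgeR adjusted p = 0.0475), a call that disappeared when any of 9 clones was omitted (adjusted p of at most 0.118). Those clones were Fgfr3-WT replicate 2, P28 replicates 1, 3, 4 and 5 and all 4 P4M replicates, and without P28 replicate 2 the log2 fold change was 3.36 (edgeR adjusted p = 0.0224). Spry1 shares 710 bases with Gm42922 on the other strand. Over all clones Spry1 had 31585 counts and Gm42922 had 235. Only non-ambiguous reads were counted, so these totals do not show reads left out in the shared bases.

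Spry4 (ENSMUSG00000024427) was at 9.77, 6.39, 6.43, 7.91 and 2.02 CPM in the Fgfr3-WT clones, at 10.3, 15.7, 10.4, 28.0 and 20.9 CPM in the P28 clones and at 31.4, 31.1, 41.9 and 53.7 CPM in the P4M clones. The groups did not overlap. Spry4 rose by 1.39 on the log2 scale in the P28 clones (SE 0.382, edgeR adjusted p = 0.0116) and by 2.6 in the P4M clones (SE 0.408, edgeR adjusted p = 0.000323). Between P4M and P28 it was 1.21 (SE 0.395, edgeR adjusted p = 0.0751) and was not called. It was called by DESeq2 (adjusted p = 0.0276) and without Fgfr3-WT replicate 5 (adjusted p = 0.0289). No other fit that left out 1 clone called it (edgeR adjusted p of at most 0.184). P28 replicates 4 and 5, which had the highest Spry4 and the lowest Dusp5 of the P28 clones, also had the most osteoblast transcripts of that group. Without both of them Spry4 was no longer called in the P28 clones (log2 fold change 0.87, edgeR adjusted p = 0.111) and was called between P4M and P28 (log2 fold change 1.74, edgeR adjusted p = 0.0315). The part of osteoblast transcripts in the Spry4 level was not tested.

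Spry2 (ENSMUSG00000022114, chromosome 14, 105891947 to 105896819) showed no called difference in any comparison. It was at 45.8, 8.03, 13.1, 15.5 and 12.2 CPM in the Fgfr3-WT clones, at 15.1, 15.9, 24.8, 12.9 and 13.7 CPM in the P28 clones and at 14.3, 14.2, 21.6 and 22 CPM in the P4M clones. All clones except Fgfr3-WT replicate 1 lay between 8.03 and 24.8 CPM. The log2 fold change was -0.20 in the P28 clones (SE 0.399, edgeR adjusted p = 0.721) and -0.07 in the P4M clones (SE 0.423, edgeR adjusted p = 0.907). Without Fgfr3-WT replicate 1 the values were 0.41 (edgeR adjusted p = 0.193) and 0.56 (edgeR adjusted p = 0.086). The sign of the P4M difference also turned without P4M replicate 1 (0.04) or 2 (0.04).

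The windows upstream of the start sites were read for 7 of the 10 genes, which had 8 promoters among the RefSeq promoters of GRCm38.p6 (mm10). No window was read for Dusp4, Spry4 and Etv4. The 250 bases before each start were searched on both strands. The motifs were an ETS site (CCGGAAG), an AP-1 site (TGANTCA), a CRE (TGACGTCA) and a CArG box, the site of serum response factor. Dusp5 alone held any of these motifs, a pair of adjacent CArG boxes at 82 to 73 and 72 to 63 bases before the RefSeq start. The start of the Dusp5 gene model given above lies 36 bases further upstream, so the boxes are 46 to 37 and 36 to 27 bases before that start. A CArG box was present in 1.47% of 32851 promoters, an ETS site in 6.91%, an AP-1 site in 6.75% and a CRE in 1.55%. The ETS site was matched as CCGGAAG only, so shorter GGAA stretches, as in the Dusp6 and Spred1 windows, were not counted. The 200 bases from the far end of the window are shown for Dusp5, which carries the motif, for Spry1, which rose most, and for Spry2, which was not called, with the CArG boxes in capitals.
Dusp5, chr19:53528895-53529094, + strand: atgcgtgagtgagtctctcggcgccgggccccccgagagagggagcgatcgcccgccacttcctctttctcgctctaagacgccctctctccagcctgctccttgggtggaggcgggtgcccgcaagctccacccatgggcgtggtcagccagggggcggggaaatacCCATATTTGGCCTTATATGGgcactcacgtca
Spry1, chr3:37639697-37639896, + strand: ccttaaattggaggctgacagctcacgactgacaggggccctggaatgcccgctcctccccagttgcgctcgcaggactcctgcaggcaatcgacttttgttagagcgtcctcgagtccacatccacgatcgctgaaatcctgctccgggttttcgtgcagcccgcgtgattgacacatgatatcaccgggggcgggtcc
Spry2, chr14:105896870-105897069, - strand: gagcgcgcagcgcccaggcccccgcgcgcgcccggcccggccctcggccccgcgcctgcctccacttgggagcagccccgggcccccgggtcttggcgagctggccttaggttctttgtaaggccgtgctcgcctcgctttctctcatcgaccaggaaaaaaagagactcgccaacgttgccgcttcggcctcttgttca
A match describes these letters in this window, and the absence of one says nothing of the factor or of sites elsewhere.

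The Spred genes, whose products bring neurofibromin to Ras at the membrane, had smaller fold changes than Dusp4, Dusp5, Spry1 and Spry4. Spred1 (ENSMUSG00000027351, chromosome 2, 117121374 to 117182279) was at 119.5, 40.3, 40.6, 51.6 and 44.7 CPM in the Fgfr3-WT clones, at 104, 92.2, 90.6, 99.2 and 114 CPM in the P28 clones and at 129, 165, 96.8 and 120.3 CPM in the P4M clones. Fgfr3-WT replicate 1 stood among the cKO clones, and the other 4 Fgfr3-WT clones lay below all of them. Spred1 rose by 0.75 on the log2 scale in the P28 clones (SE 0.278, edgeR adjusted p = 0.0464) and by 1.10 in the P4M clones (SE 0.293, edgeR adjusted p = 0.008). The P28 call disappeared when any of 11 clones was omitted (adjusted p of at most 0.103). It was kept without P4M replicate 2 or 3, and without Fgfr3-WT replicate 1, where the log2 fold change was 1.15 (edgeR adjusted p = 0.000156). Between P4M and P28 the log2 fold change was 0.35 (SE 0.292, edgeR adjusted p = 0.479).

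Spred2 (ENSMUSG00000045671, chromosome 11, 19924375 to 20024026) was at 59.8, 11.4, 23.3, 28.2 and 21.1 CPM in the Fgfr3-WT clones, at 43.3, 44.8, 46.5, 48.1 and 46.6 CPM in the P28 clones and at 84.5, 91.0, 78.2 and 88.9 CPM in the P4M clones. The cKO groups were narrow and did not overlap each other, with 45.9 ± 1.84 CPM (SD, n = 5) and 85.7 ± 5.65 CPM (SD, n = 4), where the Fgfr3-WT clones had 28.7 ± 18.4 CPM (SD, n = 5). In the P28 clones the log2 fold change of 0.67 (SE 0.313, edgeR adjusted p = 0.104) was not called, but without Fgfr3-WT replicate 1 it was 1.11 (edgeR adjusted p = 0.000854). In the P4M clones Spred2 rose by 1.57 on the log2 scale (SE 0.331, edgeR adjusted p = 0.00203). Between P4M and P28 it was 0.90 (SE 0.328, edgeR adjusted p = 0.105), and with only those 2 groups in the fit the adjusted p was 0.00141. Leaving out a clone gave a call in 2 of 14 fits (edgeR adjusted p of at most 0.199).

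Etv4 (ENSMUSG00000017724, chromosome 11, 101769742 to 101785371) and Etv5 belong to the same small subfamily of ETS factors. Etv4 was called higher in both cKO groups, and Etv5 was called in neither. Etv4 was at 1.37, 0.497, 0.647, 2.05 and 0.950 CPM in the Fgfr3-WT clones, at 13.4, 33.1, 23.6, 17.8 and 23.9 CPM in the P28 clones and at 67.4, 51.6, 67.7 and 53.1 CPM in the P4M clones. The 3 groups did not overlap, and the lowest cKO clone was above the highest Fgfr3-WT clone by a wide gap. Etv4 rose by 4.32 on the log2 scale in the P28 clones (SE 0.377, edgeR adjusted p = 1.01e-05), a fold of 20.0. In the P4M clones it was 5.75 (SE 0.406, edgeR adjusted p = 2.76e-06), a fold of 53.7, and Etv4 had the lowest adjusted p of the 10 genes in every comparison with Fgfr3-WT. Etv4 rose further from P28 to P4M by 1.42 (SE 0.342, edgeR adjusted p = 0.0274), a call that disappeared when any of 7 clones was omitted (adjusted p of at most 0.065). Those clones were P28 replicates 1, 3 and 4 and all 4 P4M replicates.

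Etv5 (ENSMUSG00000013089, chromosome 16, 22381309 to 22439719) was at 61.6, 21.1, 72.0, 76.3 and 17.6 CPM in the Fgfr3-WT clones, at 41.8, 20.3, 43.6, 33.9 and 33.7 CPM in the P28 clones and at 25.9, 30.6, 19.1 and 29.9 CPM in the P4M clones. Of the Fgfr3-WT clones, 3 lay above all cKO clones, and replicates 2 and 5 lay at the low end of the cKO range or below it. The log2 fold change was -0.52 in the P28 clones (SE 0.381, edgeR adjusted p = 0.298) and -0.92 in the P4M clones (SE 0.411, edgeR adjusted p = 0.0837). Without Fgfr3-WT replicate 2 the P4M value was -1.11 (edgeR adjusted p = 0.0333), and without replicate 5 it was -1.13 (edgeR adjusted p = 0.0198). Etv5 was the only gene of the set with a negative value in all 4 comparisons of groups.

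**Figure D2:**
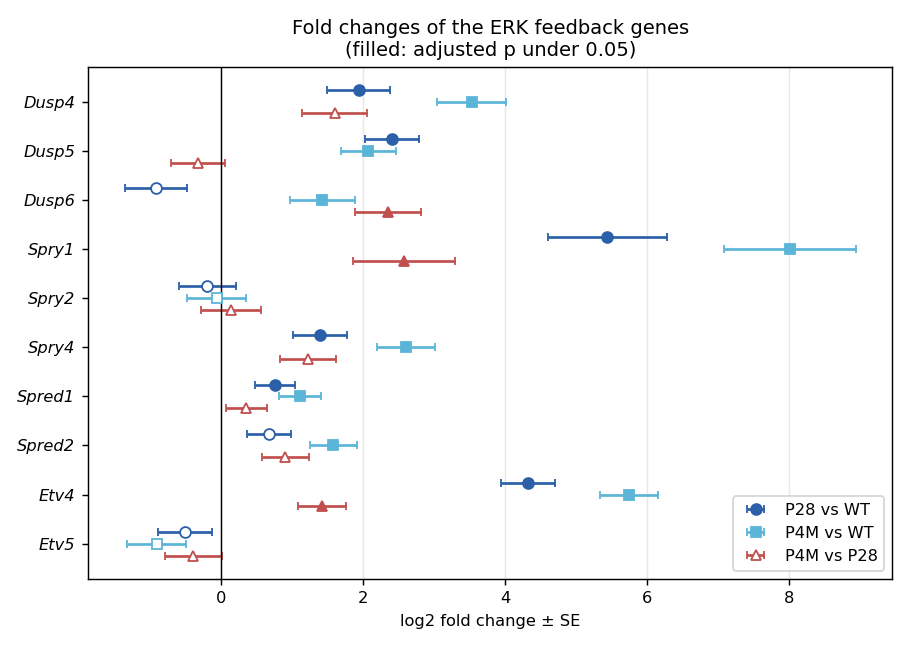
Log2 fold change ± SE (horizontal axis) of each ERK feedback gene for P28 against Fgfr3-WT (circles), P4M against Fgfr3-WT (squares) and P4M against P28 (triangles), from the edgeR fit over 14 clones, filled where the adjusted p was under 0.05. Spry1 and Etv4 lie farthest to the right in both comparisons with Fgfr3-WT, and Dusp6 changes sign between them, from -0.93 to 1.42.

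The comparison of the cKO groups is within title number 2963. Of the 10 genes, Dusp6, Spry1 and Etv4 were called higher in the P4M clones and none lower, where 3.34% of all genes tested were called higher and 3.88% lower. The median log2 fold change was 1.06 over the 10 genes and -0.01 over all genes. For 6 genes, Dusp4, Dusp6, Spry1, Spry4, Spred2 and Etv4, every P4M clone lay above every P28 clone, beside 9.07% of all genes tested. The corresponding count was 6 genes in P4M against Fgfr3-WT (Dusp4, Dusp5, Spry1, Spry4, Spred2 and Etv4), beside 17.8% of all genes, and 4 genes in P28 against Fgfr3-WT (Dusp5, Spry1, Spry4 and Etv4), beside 13%. The P4M clones were isolated at an older age, so age and the time since the loss of p53 cannot be told apart. The labels give passage 8 for P28 and 6 to 8 for P4M, while the methods give 6 to 8 for all cKO clones.

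Levels of different genes were compared in the deposited TPM, which accounts for transcript length. In the Fgfr3-WT clones the 10 genes fell into separate blocks. Dusp6 was highest at 20.2 ± 10.9 TPM (SD, n = 5), followed by Etv5 at 17.5 ± 9.65, Spred1 at 14.2 ± 8.73, Spry2 at 13.97 ± 12.0 and Spred2 at 10.8 ± 7.49 TPM. These 5 overlapped one another, and their clones lay between 4.34 and 36.1 TPM. The other 5 were Spry4 at 1.92 ± 0.870, Dusp4 at 1.63 ± 1.01, Dusp5 at 1.24 ± 0.382, Etv4 at 1.03 ± 0.442 and Spry1 at 0.332 ± 0.364 TPM. Their highest clone was at 3.26 TPM, and neighbours in this order overlapped as well. All 5 genes of the lower block rose in both cKO groups. Since a low level in the Fgfr3-WT clones also enters the fold change, the blocks and the folds are not independent.

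The order was different in the cKO clones. In the P28 clones Spred1 led at 28.5 ± 3.07 TPM (SD, n = 5), overlapping Etv4 at 24.9 ± 8.19 TPM, and Spry4 was last at 6.15 ± 2.81 TPM, overlapping Dusp4 and Dusp5. In the P4M clones Spry1, the lowest gene of the Fgfr3-WT clones, was highest at 86.2 ± 53.6 TPM (SD, n = 4), with single clones from 41.2 to 163 TPM. It overlapped Dusp6 at 54.7 ± 34.2 TPM and Etv4 at 52.9 ± 9.07 TPM. Spred2 at 33.7 ± 2.21 and Spred1 at 31.7 ± 6.38 TPM overlapped each other and lay below the lowest Etv4 clone, at 43.3 TPM. Both Spred genes also overlapped Dusp6, at 16.9 to 97 TPM, and Dusp4, which reached 31.0 TPM. Dusp4 at 19.6 ± 8.65, Spry2 at 13.95 ± 3.5 and Spry4 at 12.4 ± 3.53 TPM followed, and these 3 overlapped. Dusp5 was last at 5.61 ± 2.61 TPM, and Etv5 was next to last at 10.05 ± 2.02 TPM, and these neighbours overlapped each other, as did Etv5 and Spry4.

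**Figure D3:**
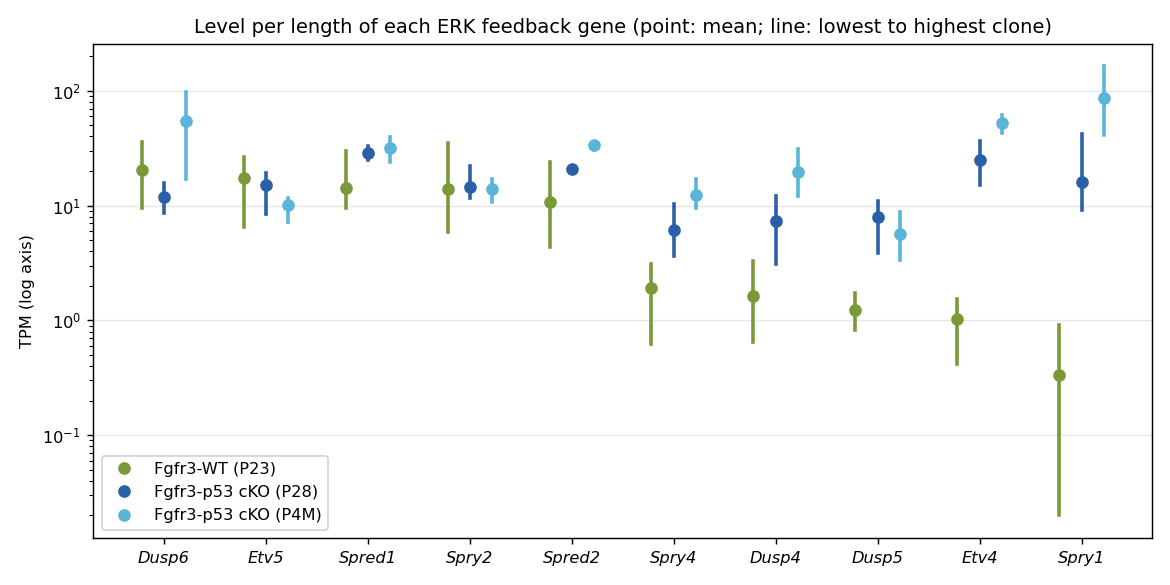
Level per transcript length of the 10 ERK feedback genes in TPM (log vertical axis), ordered by their mean in the Fgfr3-WT clones, with the mean of each group as a point and the lowest to the highest clone as a line. Spry4, Dusp4, Dusp5, Etv4 and Spry1 lie at or below 3.26 TPM in the Fgfr3-WT clones and higher in the cKO clones.

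For context, 59 other genes of the pathway were listed by role, and 58 were tested, since Fgfr4 did not pass the filter. With all cKO clones set against Fgfr3-WT, 20 of them rose and 9 fell, and their median log2 fold change was 0.23. In the P28 clones 15 rose and 9 fell, and in the P4M clones 20 rose and 8 fell. Of all genes tested, 23.1% were called higher and 25.7% lower for all cKO clones. The shares were 19.2% and 19.7% for P28, and 22.3% and 23.6% for P4M. The counts by role below are to be read beside the shares for all cKO clones. The medians for P28 and P4M against Fgfr3-WT were 0.23 and 0.24.

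The receptor and ligand genes mostly were not called, with 2 of 13 higher and 1 lower in the cKO clones. Fgfr3, whose promoter drives the Cre, was at 129, 42.2, 83.0, 68.7 and 12.5 CPM in the Fgfr3-WT clones, between 2.54 and 39.0 CPM in the P28 clones and between 10.01 and 14.2 CPM among the P4M clones. It had a log2 fold change of -2.35 (SE 0.615, edgeR adjusted p = 0.0067), and replicate 5 of the Fgfr3-WT clones overlapped the cKO clones. Fgf9, a ligand, rose by 3.59 on the log2 scale (SE 1.11, edgeR adjusted p = 0.0168) from a very low level, with 0 to 0.619 CPM in the Fgfr3-WT clones, 0.0956 to 2.79 CPM in the P28 clones, which overlapped them, and 1.87 to 8.55 CPM in the P4M clones. Igf1r, the receptor for insulin-like growth factors, rose by 0.61 (SE 0.158, edgeR adjusted p = 0.00607). Among 11 adaptors and Ras regulators, Grb2 rose by 0.26, and Frs3 and Sos2 had log2 fold changes of -1.30 and -0.78.

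Of the kinases and Ras genes, 4 of 11 were called higher and 3 lower, beside 23.1% and 25.7% of all genes. Those called higher in the cKO clones included the scaffold gene Ksr1 (log2 fold change 2.09) and the Ras gene Nras (1.19). Araf (-1.36), Braf (-1.004) and Hras (-0.53) were called lower. The Ksr1 level was 0.313 to 2.53 CPM in the Fgfr3-WT clones and 3.35 to 10.3 CPM in the cKO clones, without overlap. The median of this list was 0.03.

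Of the 12 other feedback inhibitors 8 rose and 2 fell, with a median log2 fold change of 1.03. Il17rd, also known as Sef, an inhibitor of fibroblast growth factor signalling, was at 0.847 to 2.22 CPM in the Fgfr3-WT clones, 6.56 to 69.9 CPM in the P28 clones and 9.70 to 26.4 CPM for P4M. The difference between all cKO clones and Fgfr3-WT was 4.01 on the log2 scale (SE 0.635, edgeR adjusted p = 0.000249). Dusp2 was called at 4.63 and Dusp9 at 2.34, both from Fgfr3-WT levels under 1 CPM, and no Dusp2 level was above 1.12 CPM. Dusp1 (-1.79) and Spred3 (-1.34) were called lower, so relatives of the genes above fell in the same clones. Dusp1, a phosphatase of several MAP kinases, was at 147 to 383 CPM in the Fgfr3-WT clones and 30.0 to 146 CPM in the cKO clones.

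Among 11 other genes that respond to ERK, 5 rose and 1 fell, and the median was 1.27. Epha4 (2.83), Egr2 (2.69), Myc (2.36), Epha2 (1.89) and Egr1 (1.27) were called higher and Ier3 (-0.88) lower. Epha4 was at 2.90 to 21.2 CPM in the P28 clones, and its P4M clones, at 1.09 to 2.72 CPM, lay within the range of the Fgfr3-WT clones, 0 to 3.01 CPM. Myc, a growth regulator, was at 10.2 to 29.6 CPM in the Fgfr3-WT clones, 44.1 to 79.6 CPM in the P28 clones and 119 to 151 CPM in the P4M clones. The groups did not overlap, as for Spry1, Spry4 and Etv4. The immediate early gene Fos (-0.44, edgeR adjusted p = 0.576) and the cyclin gene Ccnd1 (-0.04, edgeR adjusted p = 0.895) were not called.

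**Figure D4:**
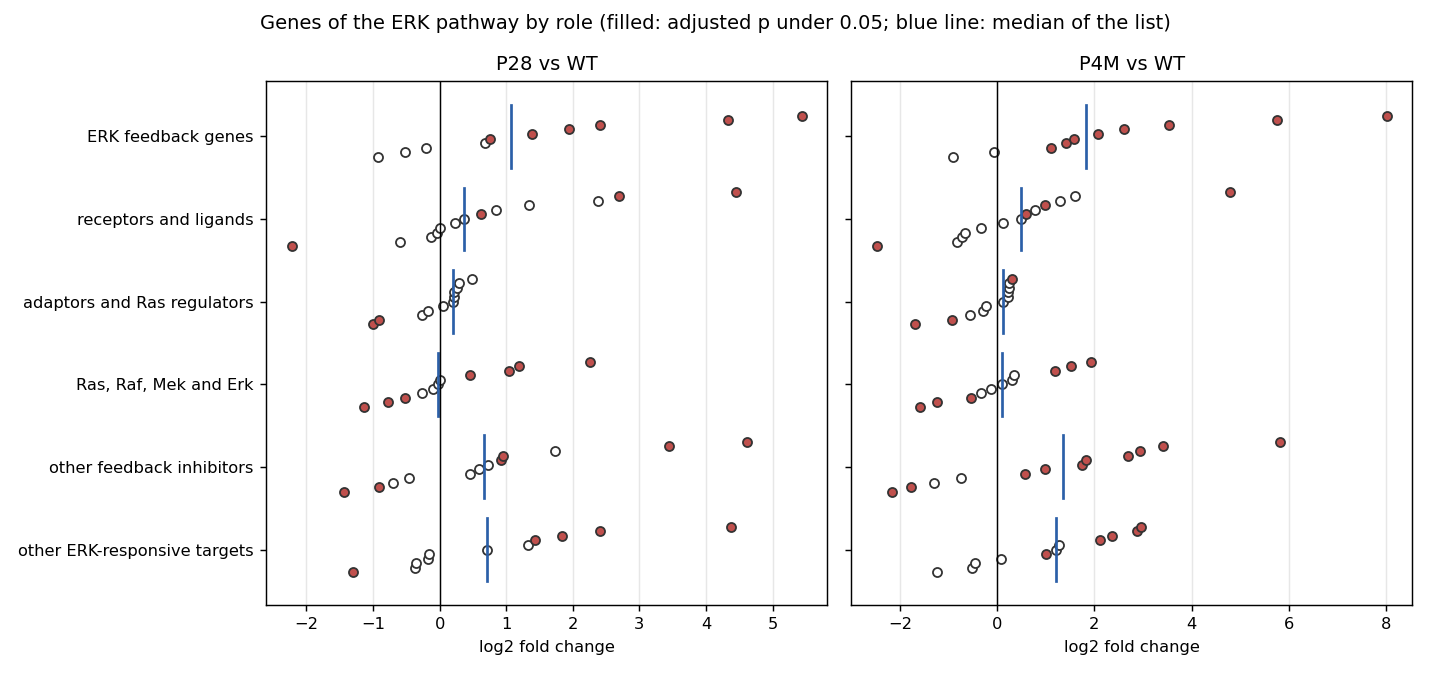
Log2 fold change (horizontal axis) of each tested gene by role in the ERK pathway, for P28 against Fgfr3-WT (left) and P4M against Fgfr3-WT (right). Points are genes, filled where the adjusted p was under 0.05 (edgeR), and the blue line is the median of the list. The ERK feedback genes have the highest medians, 1.07 and 1.82, and the Ras, Raf, Mek and Erk genes scatter around 0.

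Total counts were 25688946 to 38958693 in the Fgfr3-WT clones, 37606033 to 48648618 in the P28 clones and 43757832 to 52857424 in the P4M clones, so the cKO libraries were deeper on the whole. Trp53 was at 49.9 to 68.2 CPM in the Fgfr3-WT clones and 1.72 to 2.84 CPM in the cKO clones and so low in every clone labelled cKO. Markers of several cell types and of proliferation differed between the cKO and Fgfr3-WT clones, although single clones did not always follow their group. The summed level of 5 proliferation genes was 74.2 to 199 CPM in the Fgfr3-WT clones, 278 to 862 in the P28 clones and 484 to 883 in the P4M clones, and all 5 genes were called higher in the cKO clones. The sum of 5 osteoblast genes was 40.8 to 308 CPM in the Fgfr3-WT clones, 103 to 2840 in the P28 clones and 1557 to 3693 in the P4M clones, with 4 of 5 called higher. The sum of 3 chondrocyte genes was 741 to 22594 CPM, 170 to 1324 CPM and 22.8 to 54.4 CPM in the same order, with 3 of 3 called lower. Of 4 skeletal markers none was called. Col1a2 was at 0.03 to 0.84 CPM in Fgfr3-WT replicates 1 to 4 and at 4354 CPM in replicate 5, beside 7793 to 33256 CPM in the cKO clones. Col3a1 varied from 0.13 to 637 CPM in the Fgfr3-WT clones, 195 to 1350 CPM in P28 and 10.04 to 1727 CPM in P4M, Prrx1 was at 4.53 CPM in P28 replicate 5 and at 45.1 CPM or more in the other clones, and the groups overlapped for Pdgfrb. The sum of 4 reticular and adipocyte genes was 2.93 to 272 CPM in the Fgfr3-WT clones, 377 to 538 CPM in P28 and 109 to 511 CPM in P4M, with 1 of 3 tested genes called higher. The haematopoietic sum was 16.5 to 145 CPM in the Fgfr3-WT clones and 3.37 to 22.3 CPM in the cKO clones. Of its 3 tested genes, Lyz2 and Cd68 were called lower and Csf1r was called higher. The mean of Csf1r was 0.22 CPM in the Fgfr3-WT clones, 0.78 CPM in P28 and 0.57 CPM in P4M. The defining haematopoietic marker Ptprc was at or below 0.15 CPM in all clones. The endothelial marker Cdh5 was at 0 in all clones, but Kdr, the only endothelial gene tested, was called higher, at 0 to 0.569 CPM in the Fgfr3-WT clones, 0.307 to 4.11 CPM in P28 and 2.59 to 12.6 CPM in P4M. In bulk samples more cells of a type and more RNA per cell cannot be told apart, and the part of these shifts in the ERK feedback genes was not tested.

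Fgfr3-WT replicate 5, the clone with Col1a2, lay below all 9 cKO clones for each of the 7 genes called higher. Those genes were called with this clone in the fit, and the clone was picked after its Col1a2 level was seen. The share of all genes with this pattern was not computed, so no conclusion is drawn from it. Without P28 replicates 4 and 5, the number of the 10 genes called higher was 7 in all cKO clones, 4 in P28, 8 in P4M and 2 in P4M against P28. The shares of all genes called higher in that fit were 20.3%, 13.8%, 22% and 3.95% in the same order. The 4 left in P28 were Dusp4, Dusp5, Spry1 and Etv4.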

How the data were processed

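Bulk RNA-seq of 14 clones was analysed from the raw counts and the TPM values that the authors deposited. The authors prepared cDNA with SMART-Seq v4, sequenced single-end reads, aligned them to mm10 with TopHat and Bowtie2, and counted non-ambiguously mapped reads with HTSeq (versions are not given in the sources used here). The deposited counts are whole numbers without normalization, and the deposited TPM sum to about 1000000 per clone. The program behind the TPM is not given in the sources used here. The depth-normalized counts, rlog, FPKM and expected counts were not used.

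Counts were analysed with edgeR 4.0.16 (limma 3.58.1, R 4.3.3). The steps were filterByExpr, TMM scaling, and a robust quasi-likelihood fit of 3 group means over the 14 clones. They gave 4 contrasts and a test among the groups, with Benjamini-Hochberg adjustment over 17358 genes and an FDR of 0.05. SE is the absolute log2 fold change divided by the square root of F. Log2 CPM used a prior count of 2. The steps were tested on simulated data. A count of 0 allows up to 3 counts, or 0.0564 to 0.121 CPM by clone, and such limits cover counting error only.

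The 10 genes and all lists were chosen with earlier results of these data known. Named genes were the 10 genes, Trp53, Fgfr3, for each pathway list the 3 highest and the 3 lowest called log2 fold changes of all cKO clones against Fgfr3-WT, and the 3 genes most like each of the 10. Epha2, Egr1, Fos and Ccnd1, and the single marker genes, were named after their values were seen. Some items that the rule takes are left out of this text. The alternatives were DESeq2 1.42.0, other scalings and filters, a minimum log2 fold change of 1, fits of only the compared groups, and leaving out each clone. Fgfr3-WT replicate 5 alone and leaving out P28 replicates 4 and 5 were added after seeing the data. Promoters came from RefSeq (GRCm38.p6), and figures were drawn with matplotlib 3.10.9 in Python 3.11.15.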

Additional observations from a re-analysis of the deposited data

Results flagged for a closer look

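A test for a clone that stands apart from its group (Dixon, at the 95% level) was made on log2 CPM, for each of the 10 genes. It covered each of the 3 groups, which is 30 tests, and chance marks about 1 in 20 groups. The test marked 3 values, given here as CPM. Spry1 was at 60.6 CPM in P28 replicate 2, above the other P28 clones. Spry4 was at 2.02 CPM in Fgfr3-WT replicate 5, below the other Fgfr3-WT clones. Spred1 was at 119.5 CPM in Fgfr3-WT replicate 1, above the other Fgfr3-WT clones, and the same clone had the highest Fgfr3-WT level of Dusp6, Spry2, Spry4 and Spred2.

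Of the 10 genes, 3 were called between the P4M and P28 clones (edgeR), all higher in P4M. Of all genes tested, 3.34% were called higher and 3.88% lower. No Fgfr3-WT clones of 4 months were compared, so this is a difference between the cKO groups and not a test of the effect of the cKO at each age. The log2 difference was 2.35 for Dusp6, 2.57 for Spry1 and 1.42 for Etv4. The first kept its call without any single clone, and the other two did not.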

How the results depend on the processing

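The results were recomputed under 23 alternatives, of which 14 left out a clone each. Of 876 values of single genes, 798 kept their direction and their side of the threshold, 41 lost a call, 24 gained one and 13 changed sign. Of 184 recomputed counts, 158 stayed within 1.5 times the reported count. The counts of called ERK feedback genes against Fgfr3-WT were among these under every alternative. Leaving out a clone gave 7 to 8 for all cKO clones, 5 to 7 for P28 and 7 to 9 for P4M. These counts take both directions together, and the share of all genes called was not computed for the fits that left out a clone. The 8 and the 9 include Etv5, called lower without Fgfr3-WT replicate 2 or 5. For all cKO clones its log2 fold change was then -0.92 (edgeR adjusted p = 0.0302) and -0.94 (edgeR adjusted p = 0.0173).

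The counts of P4M against P28 were the least stable. Among the alternatives, the share of all genes called was computed only without P28 replicates 4 and 5. Elsewhere a change in these counts cannot be told apart from a change in the calls over all genes. The 3 called ERK feedback genes became 5 with DESeq2, 6 with only the compared groups and 6 with Fgfr3-WT replicate 5 alone, and 1 to 5 without a clone. It was 1 without P28 replicate 1, 3 or 4 or any P4M clone, and 5 without Fgfr3-WT replicate 1. The 7 other pathway genes became 12 with DESeq2, 12 with only the compared groups, 11 with Fgfr3-WT replicate 5 alone, 11 without P28 replicates 4 and 5, and 1 to 11 without a clone. That count was 1 without P4M replicate 4, 2 without P28 replicate 1, 3 without P4M replicate 1 or 3, 4 without P28 replicate 3 or P4M replicate 2, and 11 without Fgfr3-WT replicate 1. With Fgfr3-WT replicate 5 alone, 13, 12 and 14 other pathway genes were called in all cKO, P28 and P4M clones, where 29, 24 and 28 had been. That fit holds 1 Fgfr3-WT clone, picked after its Col1a2 level was seen and assumed to vary like the cKO clones, so its values support no call. A minimum log2 fold change of 1 left 15 in the P28 clones.

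The changes of sign concerned Spry2 and Etv5, which were not called. Leaving out a clone gave Spry2 values of -0.33 to 0.48 for all cKO clones, -0.41 to 0.41 for P28 and -0.27 to 0.56 for P4M against Fgfr3-WT, with the highest of each without Fgfr3-WT replicate 1. With Fgfr3-WT replicate 5 alone it was at 0.49, 0.42 and 0.55, and Etv5 was at 0.77, 0.96 and 0.57. In P4M against Fgfr3-WT, Spry2 was at 0.014 without a filter, 0.04 without P4M replicate 1 and 0.04 without P4M replicate 2. In P4M against P28 it was at -0.012 without P28 replicates 4 and 5. The cause of these shifts was not tested. Spry1 could not be tested with at least 10 counts in every clone. No paired analysis was possible because the labels give no replicate numbers that the groups share.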

Other observations

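Over the 14 clones, with the mean of each group taken off, the genes most like each ERK feedback gene were found among about 9659 other genes whose log2 CPM averaged 3 or more. These are descriptions of correlations chosen as the highest of many, with no test. The clones differed in depth, and the part of depth or culture in these correlations was not tested. None of the genes named here was another of the 10. Spry1 was most like Pycrl (r = 0.920), Mtbp (r = 0.919) and Atf4 (r = 0.905), the last encoding a transcription factor of the amino acid stress response. The minimum level was not set for the 10 genes themselves. Spry1 had 1 to 37 counts in the Fgfr3-WT clones, and the part of counting error in its likeness was not tested. Dusp4 was most like Xrcc6 (r = 0.900), a gene of DNA end joining, and Dusp6 was most like Gm6627 (r = 0.907). Dusp5 was most like Mvb12b (r = 0.840), Spry4 was most like Taf5l (r = 0.910), and Etv4 was most like Cct2 (r = 0.888), a subunit of the CCT chaperonin.

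Etv5 was most like Dop1b (r = 0.909), Papss2 (r = 0.885), which makes the sulfate donor that cartilage matrix needs, and Klf4 (r = 0.851). Spred1 was most like Srgap2 (r = 0.978), Spred2 was most like Malsu1 (r = 0.960) and Spry2 was most like Zfp628 (r = 0.937). For these 3 genes the likeness rested in part on Fgfr3-WT replicate 1, and without it the correlations were 0.895, 0.873 and 0.791.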
